A study of Mus musculus with 12 samples.

Results

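Apoptosis is carried out by caspases, proteases that are made as inactive precursors and cut their targets after aspartate residues. In the mitochondrial route, cytochrome c leaves the mitochondria and binds Apaf1, which assembles into the apoptosome and activates caspase 9. In the death receptor route, ligand-bound receptors recruit the adaptor Fadd and caspase 8, and c-FLIP, the product of *Cflar*, competes for this platform. Both routes converge on executioner caspases, and apoptosis of progenitors and young neurons is a normal part of forebrain development.

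The 8 genes described here are *Casp2*, *Casp6*, *Casp8*, *Casp9*, *Casp12*, *Apaf1*, *Cycs* (cytochrome c, somatic) and *Cflar*, looked up by symbol among the 24525 genes of the count tables, and all 8 passed the filter on low counts that left 13112 genes. The RNA came from neural stem/progenitor cells (NSPCs) of E14.5 C57BL/6 embryos, grown at passage 1 as neurospheres (floating cultures) with EGF at 20 ng/ml and bFGF at 10 ng/ml. One group is wild type. The other, Ythdf2-/-, descends from mice in which LoxP sites around the 5′ UTR and exon 1 of *Ythdf2* were recombined by a ubiquitously expressed Cre, after which heterozygotes were mated, so the loss is not restricted to neural cells. Ythdf2 is a reader of *N*6-methyladenosine (m6A) that promotes mRNA decay. There are 3 input libraries per genotype, that is, fragmented mRNA sequenced without the m6A antibody. The 6 m6A-IP libraries were not analysed here, so no m6A site on these transcripts is described.

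The 6 libraries held 11029827 to 13185778 counted reads. *Ythdf2* itself was at 71.9 to 91.4 CPM (counts scaled to a common library size of 1000000 reads) in wild type and at 11.1 to 14.7 CPM in Ythdf2-/-. Wild-type replicate 3 stood apart from the other 5 libraries: its mean Spearman correlation with them was 0.900, against 0.962 to 0.970 for the others. The 7 neural progenitor markers, led by *Vim* and *Fabp7*, summed to 3668 CPM in it, against 4903 to 6605 CPM elsewhere. Of these, *Vim*, *Fabp7* and *Nes* were at their lowest in it and *Sox2*, *Pax6*, *Hes5* and *Sox9* at their highest. The 6 astrocyte markers, led by *Slc1a3* and *Gja1*, summed to 8099 CPM in it, against 2523 to 6119 CPM. Among them *Gfap* had 5103, 8190 and 33286 reads in wild-type replicates 1 to 3. In Ythdf2-/- replicates 1 to 3 *Gfap* had 1494, 1185 and 69 reads. *Slc1a3* was lower in wild-type replicate 3 than in 4 of the other 5 libraries. The 6 neuronal markers, led by *Map2* and *Dcx*, summed to 1855 CPM in that library, against 1058 to 1285 CPM, and the 6 markers of the oligodendrocyte lineage, led by *Olig1* and *Olig2*, to 2850 CPM, against 1565 to 1902 CPM. In such bulk RNA, fewer cells of a type and less RNA per cell cannot be told apart. The 9 microglia and macrophage markers summed to 3.18 to 4.67 CPM in every library, with *C1qa*, *C1qb* and *Ptprc* at 0. The endothelial markers stayed at or below 2.21 CPM and the mesenchymal markers at or below 1.03 CPM. Fold changes of the genes are therefore also given without wild-type replicate 3 where that turned their direction or moved them by over 1.5 times. The labels do not say whether replicates are separate embryos or litters, and the paper calls them biological replicates.

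The 5 caspases share the stretch around the catalytic cysteine, which is shown because it defines the family that the count data describe. Each run of 21 bases was read 5′ to 3′ on the coding strand of a GENCODE M21 transcript (GRCm38), with the cysteine codon in capitals. The codon lies at chr6:42276776-42276778 in *Casp2*, chr3:129912121-129912123 in *Casp6*, chr1:58844619-58844621 in *Casp8*, chr4:141807253-141807255 in *Casp9* and chr9:5353859-5353861 in *Casp12*, all on the plus strand.
Casp2: atccaagcaTGTcgtggagat
Casp6: atccaggccTGTcggggtagc
Casp8: attcaggctTGCcaaggaagt
Casp9: atccaggccTGCggtggtgag
Casp12: atgcaggccTGCagaggcaga
Of the 21 positions, 10 held the same base in all 5 genes, and the stretch spans an exon junction in 4 of them. *Casp8* and *Cflar* are neighbours on the plus strand of chromosome 1 (GRCm38.p6), with *Cflar* from 58711311 to 58758884 and *Casp8* from 58795233 to 58847503. The remaining genes lie on 5 other chromosomes, of which chromosome 6 carries both *Casp2* and *Cycs*.

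Levels of different genes were compared per kilobase of merged RefSeq exons (RPKM). *Cycs* was by far the highest, at 107 ± 47.7 RPKM (mean ± SD over the 6 libraries), and its lowest library (30.0 RPKM) lay above the highest value of any other member. Cytochrome c carries electrons between complexes of the mitochondrial respiratory chain, besides its part in the apoptosome. Next came a group of 4 genes whose libraries overlapped, so that their order is not resolved: *Casp2* (9.43 ± 1.57 RPKM), *Casp6* (8.75 ± 2.43), *Casp9* (8.10 ± 0.680) and *Apaf1* (8.09 ± 1.60). *Cflar* followed at 4.77 ± 0.510 RPKM and *Casp12* at 2.79 ± 0.747 RPKM, each below the gene above it in all 6 libraries. *Casp8* was the lowest, at 0.365 ± 0.287 RPKM, with its highest library (0.858 RPKM) below the lowest of *Casp12* (1.90 RPKM). With the effective gene lengths of the deposited tables the order of the means was the same, but *Cflar*, whose length there is at most 6442 instead of 8444 bases, was at 6.30 RPKM and overlapped *Apaf1*, which was higher in 4 of the 6 libraries. The step from *Apaf1* to *Cflar* therefore depends on the gene length used.

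**Figure D1:**
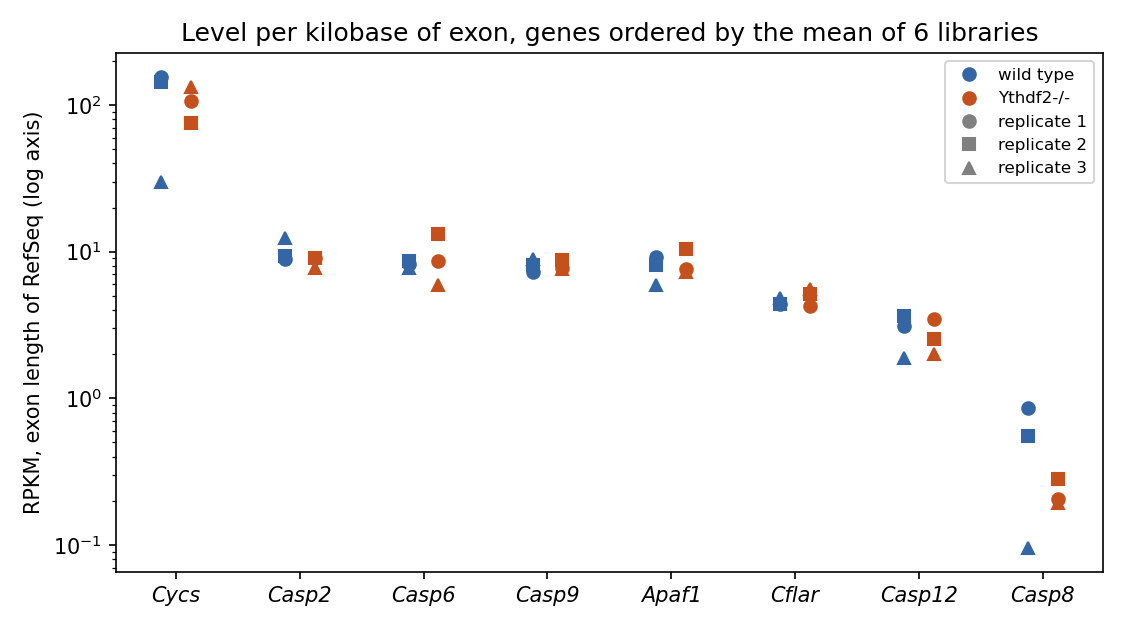
Level of each gene in RPKM (reads per kilobase of merged exon and 1000000 counted reads, log axis) in the 6 libraries, coloured by genotype with a symbol per replicate number. *Cycs* lies above all other genes, *Casp2*, *Casp6*, *Casp9* and *Apaf1* overlap between 5.90 and 13.3 RPKM, and *Casp8* lies below 1 RPKM in each library.

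To see whether loss of Ythdf2 went with a different level of the apoptotic machinery, wild type was compared with Ythdf2-/- by fitting the whole table in edgeR, where genotype was the sole term of the quasi-likelihood model and p-values were adjusted by the Benjamini-Hochberg method. None of the 8 genes was called at an adjusted p under 0.05, where the call rate over all genes tested was 0%. At an unadjusted p under 0.05 the count was also 0 of 8, against 3.63% of the 13112 genes tested. In no member did all Ythdf2-/- libraries lie above or below all wild-type libraries, which was the case for 10.2% of all genes (5.24% with Ythdf2-/- higher and 4.92% with it lower). The log2 fold changes ran from -1.13 for *Casp8* to 0.18 for *Casp6*, with 3 genes higher and 5 lower in Ythdf2-/-. Their median was -0.04, and that of all genes was -0.01. Every member had an adjusted p of 0.999. The intervals differ widely in what they allow, and the genes are therefore taken in turn by their role.

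**Figure D2:**
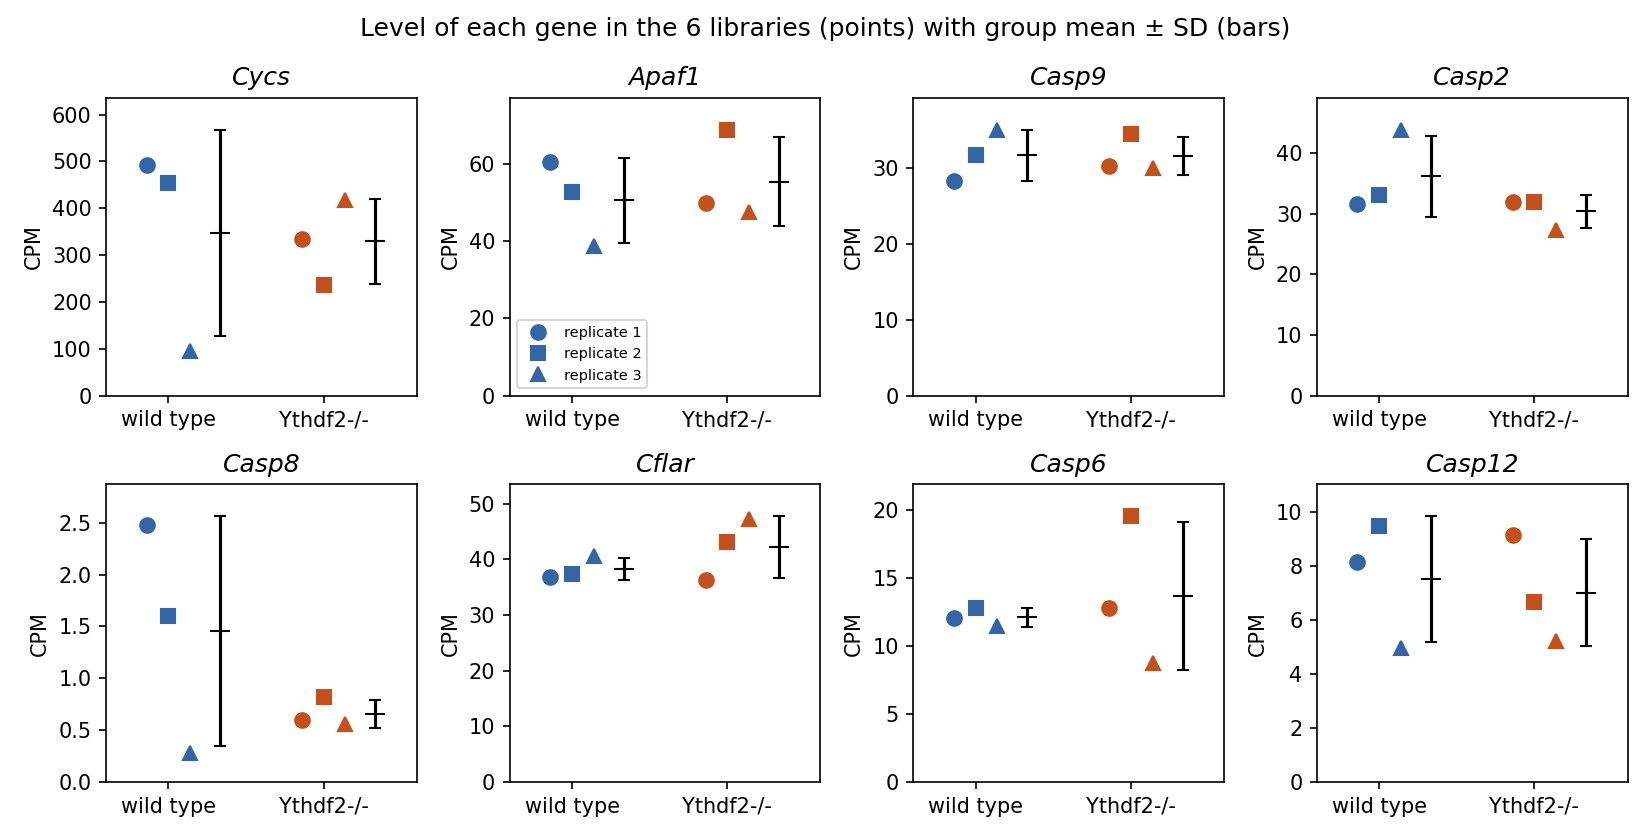
CPM (linear axes from 0) of each gene in 3 wild-type (blue) and 3 Ythdf2-/- (orange) libraries, with the group mean ± SD as a black bar. Wild-type replicate 3, the blue triangle, is the lowest of the 6 libraries for *Cycs*, *Apaf1*, *Casp8* and *Casp12* and the highest for *Casp2* and *Casp9*.

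*Cycs* (chromosome 6, minus strand, 50562563 to 50566569, 3 exons) had 493, 455 and 94.7 CPM in wild-type replicates 1, 2 and 3. In Ythdf2-/- replicates 1, 2 and 3 it had 334, 236 and 417 CPM. The 3 Ythdf2-/- libraries thus lay between a high pair and 1 low library of the wild type. The wild-type group was at 348 ± 220 CPM (SD, n = 3) and the Ythdf2-/- group at 329 ± 90.4 CPM (SD, n = 3). On the log2 scale the edgeR fold change was -0.08 with a standard error of 0.590 (adjusted p = 0.999) and a 95% interval from -1.51 to 1.35, so that a 2-fold difference in either direction was not detectable here. Without wild-type replicate 3 the value was -0.53 (standard error 0.233, interval -1.09 to 0.04, adjusted p = 0.323), and the 3 Ythdf2-/- libraries then lay below the other two. The 3 highest *Cycs* libraries, wild-type replicates 1 and 2 and Ythdf2-/- replicate 3, are also the 3 with reads on Y-linked genes. With a term for such reads the *Cycs* value was 0.70 (standard error 0.455).

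The low *Cycs* value of wild-type replicate 3 was 5.0-fold under the mean of replicates 1 and 2, and 4.22% of all genes tested were at least 5-fold lower in that library. *Birc5*, which encodes survivin, a protein of dividing cells, had 1.56 CPM in it against 55.6 to 80.0 CPM in the other 5 libraries. *Lmnb1*, which encodes the caspase substrate lamin B1, had 85.6 CPM against 234 to 341 CPM. The part of cell division or cell composition in the *Cycs* value was not tested. In the deposited table of expected counts, *Cycs* did not show the difference: it had 55.0, 73.1 and 65.1 expected counts in the wild-type replicates, which is 225, 281 and 246 when scaled to 1000000. The Ythdf2-/- replicates had 172, 191 and 209 on that scale, all below the wild type, and the groups did not overlap for 7.5% of the 2559 genes tested there (2.5% with Ythdf2-/- lower). On the same table, edgeR on the rounded values gave a log2 fold change of -0.47 (standard error 0.254, adjusted p = 1.0). That table holds 1.97% to 2.40% as many reads as the raw counts. In it, 44 genes with a raw difference of at least 4-fold and at least 20 expected counts in wild-type replicates 1 and 2 (*Cycs* among them) had a median difference of 1.14-fold, against 9.55-fold in the raw counts, and 8 of them differed by 2-fold or more. Those gene minimums were chosen after the values were seen. The annotation also names 3 *Cycs* pseudogenes, and how reads shared with them were counted is not given in the sources used here.

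**Figure D3:**
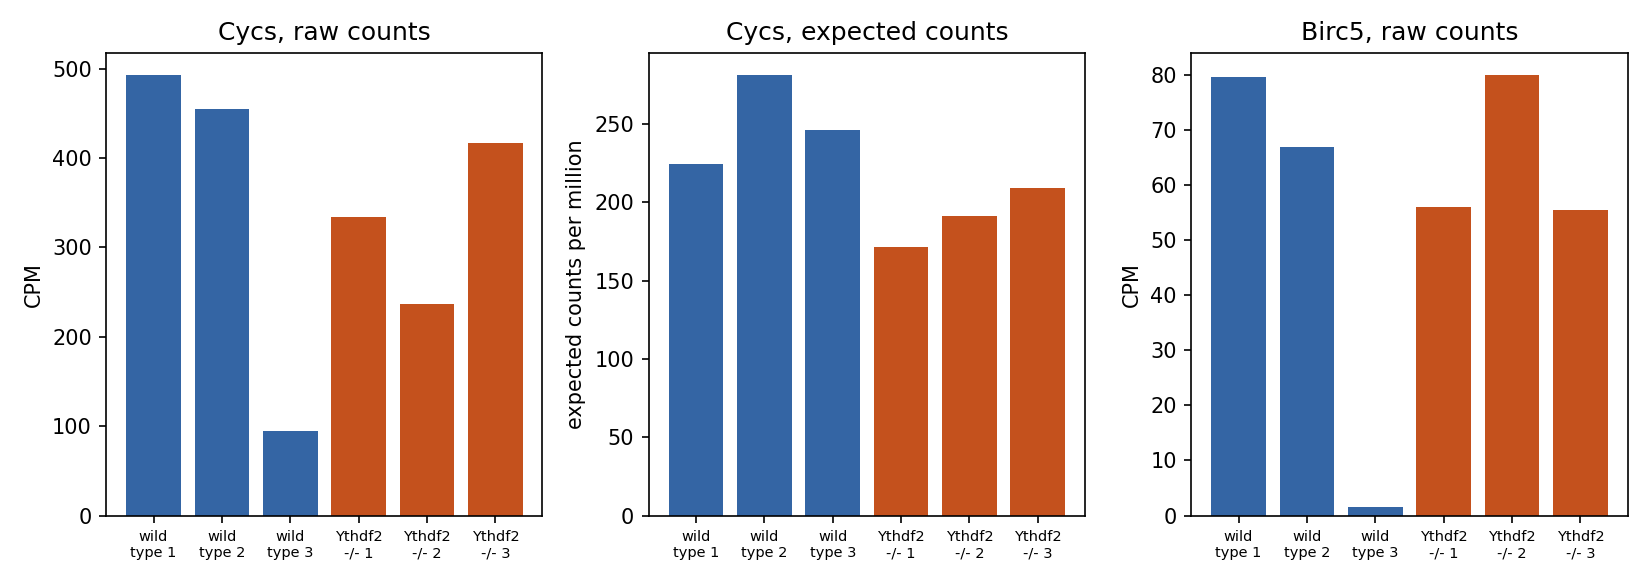
*Cycs* in CPM from raw counts (left), *Cycs* in expected counts scaled to 1000000 (middle) and *Birc5* in CPM (right), 1 bar per library, from 0. Wild-type replicate 3 is lowest in the left and right panels, at 94.7 and 1.56 CPM, and lies at 246 in the middle panel, between the other wild-type libraries.

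For *Cycs* and *Apaf1* and the other members, the promoter windows of the RefSeq table (300 bases around the start of the gene) were searched on both strands for 2 short motifs, because control of the cytochrome c gene by nuclear respiratory factor 1 and CREB is well known. GCATGCGC, the core of the nuclear respiratory factor 1 motif, was in 2.71% of 32851 promoters, and TGACGTCA, the cAMP response element, in 1.79%. The *Cycs* promoter held 1 match to each, and the *Apaf1* promoter 1 match to the first. The other 6 members held neither. The matches are in capitals with their flanks on the strand of the gene, at chr6:50566611-50566640 and chr6:50566720-50566749 for *Cycs* and chr10:91082838-91082867 for *Apaf1* (GRCm38.p6, minus strand). The 2 matches in *Cycs* do not overlap, and the capitals in *Apaf1* are the reverse complement of the motif's letters.
Cycs, nuclear respiratory factor 1 core: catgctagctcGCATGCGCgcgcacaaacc
Cycs, cAMP response element: aggccagagggTGACGTCAcgcacgtccac
Apaf1, nuclear respiratory factor 1 core: cccaccccaccGCGCATGCgagaacgctca
These are matches of letters, and binding was not measured.

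*Apaf1* (chromosome 10, minus strand, 90989311 to 91082743), the scaffold of the apoptosome, had 60.4, 52.8 and 38.7 CPM in wild-type replicates 1 to 3 and 50.0, 68.9 and 47.6 CPM in Ythdf2-/- replicates 1 to 3. The groups overlapped, with the lowest library in wild type and the highest in Ythdf2-/-. For *Apaf1* a log2 fold change of 0.13 resulted (standard error 0.227, interval -0.42 to 0.68), and without wild-type replicate 3 it was -0.03. *Casp9* (chromosome 4, plus strand, 141793612 to 141815978), the initiator that Apaf1 activates, had the smallest coefficient of variation of the 8 genes, 8.39% over the 6 libraries, which ran from 28.2 to 35.0 CPM, with means of 31.6 ± 3.36 and 31.5 ± 2.51 CPM (SD, n = 3 each). The log2 fold change was 0.00 (-0.003 before rounding) and 0.07 without wild-type replicate 3, and the interval of the first, from -0.35 to 0.35, leaves room for ratios of 0.782 to 1.27. *Casp9* shares 102 bases of exon with *Cela2a* on the opposite strand, a gene that had 0 or 1 reads per library.

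Within a library, the ratio of *Casp9* to *Apaf1* per kilobase was 0.786, 1.01 and 1.52 in wild type and 1.02, 0.841 and 1.06 in Ythdf2-/-. The Ythdf2-/- values fell inside the wild-type range (exact permutation p = 0.9, two-sided, where 3 against 3 cannot go below 0.1). *Cycs* exceeded *Apaf1* by 5.09-fold in wild-type replicate 3 and 7.14-fold in Ythdf2-/- replicate 2. In the other 4 libraries the excess was 13.9- to 18.2-fold.

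*Casp8*, the initiator of the death receptor route, was close to the limit of detection. Its reads numbered 29, 21 and 3 in the wild-type libraries and 7, 11 and 7 in the Ythdf2-/- libraries, in the order of the replicates. In CPM, with exact Poisson intervals that cover counting error only, this is 2.48 (1.66 to 3.56), 1.60 (0.992 to 2.45) and 0.275 (0.0566 to 0.802) in wild type. In Ythdf2-/- it is 0.597 (0.240 to 1.23), 0.814 (0.407 to 1.46) and 0.563 (0.226 to 1.16). The Ythdf2-/- libraries lay close together, and the wild-type libraries lay on both sides of them. The log2 fold change of -1.13 (standard error 0.727, interval -2.89 to 0.63) was larger in size than that of 97.3% of the genes tested, and the adjusted p from edgeR was 0.999. Without wild-type replicate 3 the *Casp8* value was -1.61 with a standard error of 0.400 (edgeR, unadjusted p = 0.00649, adjusted p = 0.190), with all Ythdf2-/- libraries below the other two. In that fit 1 of the 8 members had an unadjusted p under 0.05, against 16.6% of all genes, 0 were called, against 0.0151%, and for 2 members, *Casp8* and *Cycs*, the groups did not overlap, against 39.0% of all genes. For *Casp8*, limma-voom with sample quality weights, which gave wild-type replicate 3 the lowest weight, also had an unadjusted p under 0.05 (log2 fold change -1.55, adjusted p = 0.0663), against 29.9% of all genes. Other fits gave smaller differences: -0.53 (standard error 0.773) without wild-type replicate 1, -0.54 (standard error 0.793) with the term for Y-linked reads and -0.70 (standard error 0.827) with limma-voom. In wild type, with the reads of replicates 1 and 2 pooled, *Casp8* was 7.37-fold higher in replicates 1 and 2 than in replicate 3 (exact interval from counting error 2.38 to 36.9).

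*Cflar*, whose product resembles caspase 8 but lacks its protease activity, was more abundant than *Casp8* in each library. It had 36.9, 37.4 and 40.5 CPM in wild-type replicates 1 to 3 and 36.2, 43.2 and 47.2 CPM in Ythdf2-/- replicates 1 to 3. The top 2 libraries were Ythdf2-/- and so was the lowest one. For *Cflar* the log2 fold change was 0.14 (standard error 0.146, interval -0.21 to 0.49), and it was 0.05 without Ythdf2-/- replicate 3 and 0.25 without Ythdf2-/- replicate 1. The rounded expected counts gave -0.41 (standard error 0.292), the opposite direction. Per kilobase, *Cflar* exceeded *Casp8* by 5.09- and 7.99-fold in wild-type replicates 1 and 2 and by 50.6-fold (17.3 to 245, from the 3 reads of *Casp8*) in replicate 3. In Ythdf2-/- the excess was 20.8-, 18.2- and 28.7-fold. The Ythdf2-/- values lay between the 2 low and the 1 high value of wild type (exact permutation p = 0.5, two-sided). In the table of expected counts *Cflar* had 44.1 to 98.8 counts, 7.56% to 22.3% of its raw counts, whereas the 6 members other than *Cflar* and *Cycs* had at most 3 in a library.

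*Casp2* (chromosome 6, plus strand, 42264902 to 42282508), an initiator activated by the PIDDosome and linked to DNA damage and mitotic errors, had 31.7, 33.0 and 43.8 CPM in wild-type replicates 1 to 3 and 31.9, 32.0 and 27.3 CPM in Ythdf2-/- replicates 1 to 3. The highest library was wild type and the lowest Ythdf2-/-, with the rest between 31.7 and 33.0 CPM. This gave a log2 fold change of -0.25 (standard error 0.176, interval -0.68 to 0.17), and leaving out wild-type replicate 3 brought it to -0.09. The fit that accounts for Y-linked reads gave -0.35 (unadjusted p = 0.0330, adjusted p = 0.412 from edgeR), where 11% of all genes had an unadjusted p under 0.05. *Pidd1*, a PIDDosome component, had 21.1, 21.4 and 4.76 CPM in wild type and 15.3, 16.1 and 14.2 CPM in Ythdf2-/-, so that *Casp2* was highest in the library where *Pidd1* was lowest. *Cradd*, the adaptor of the complex, ran from 3.97 to 6.96 CPM with overlapping groups.

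*Casp6* (chromosome 3, plus strand, 129901415 to 129914112), an executioner caspase that cuts lamins and acts in axon degeneration, had 12.1, 12.8 and 11.4 CPM in wild type. In Ythdf2-/- it had 12.8, 19.5 and 8.77 CPM in replicates 1, 2 and 3, so that both the highest and the lowest library were Ythdf2-/-. The SD was 0.691 CPM in wild type and 5.45 CPM in Ythdf2-/- (n = 3 each). Its log2 fold change of 0.18 (standard error 0.311, interval -0.57 to 0.93) rested on Ythdf2-/- replicate 2, and without that library it was -0.16. *Casp12* (chromosome 9, plus strand, 5345442 to 5373034), a caspase of the inflammatory group that has been linked to endoplasmic reticulum stress in mice, had 8.13, 9.46 and 4.94 CPM in wild type and 9.12, 6.66 and 5.23 CPM in Ythdf2-/-. The replicate numbered 3 was the lowest in both genotypes. For *Casp12* a log2 fold change of -0.10 resulted (standard error 0.343, interval -0.93 to 0.73), and the value was -0.33 when either wild-type replicate 3 or Ythdf2-/- replicate 1 was left out.

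**Figure D4:**
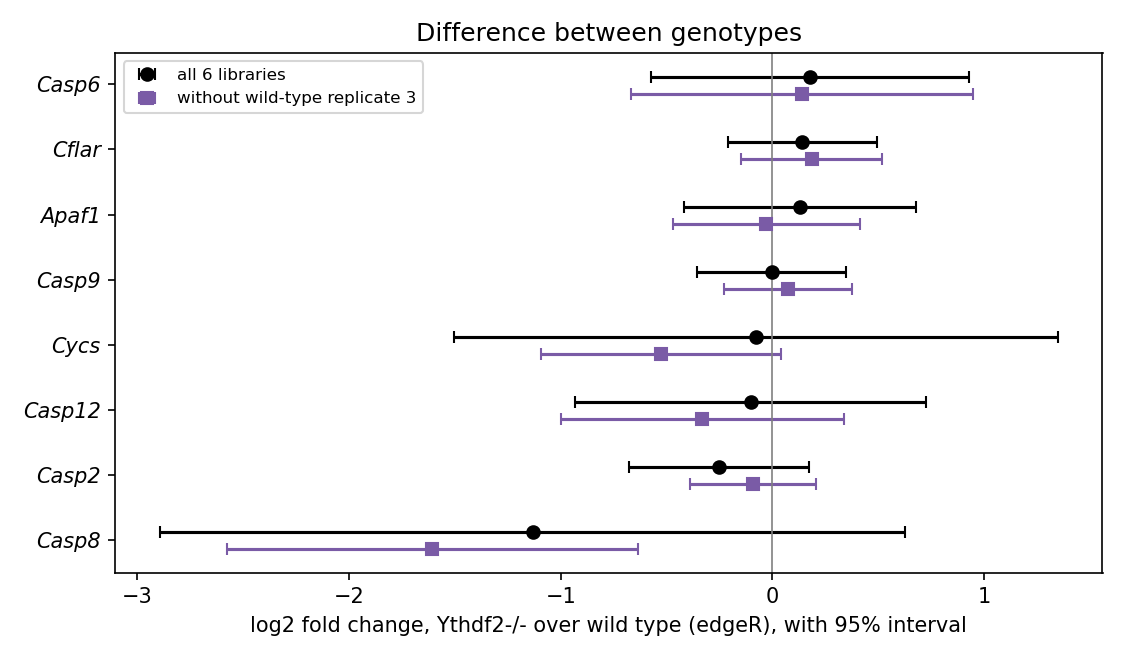
Log2 fold change of Ythdf2-/- over wild type from edgeR with its 95% interval, for all 6 libraries (black circles) and without wild-type replicate 3 (purple squares). All intervals include 0 except that of *Casp8* without that library, from -2.58 to -0.64, where the adjusted p was 0.190.

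The genes differed among themselves in their spread between libraries. In 3 of them, *Casp6*, *Casp8* and *Cycs*, the highest library was over 2 times the lowest, by 2.23-, 9.04- and 5.20-fold. The corresponding value was 1.24-fold for *Casp9*, 1.30-fold for *Cflar*, 1.61-fold for *Casp2*, 1.78-fold for *Apaf1* and 1.91-fold for *Casp12*. Wild-type replicate 3 was the lowest library for 4 of the 8 genes. The 5 caspases added up to 82.6, 88.6 and 95.5 CPM in wild type and 84.7, 93.4 and 71.8 CPM in Ythdf2-/- (exact permutation p = 0.6, two-sided). The profiles most like that of *Cycs* over the 6 libraries, by the root mean square difference of centred log2 CPM, were *N4bp3* (0.07) and *Gm684* (0.07). The closest to *Casp8* were *Ntng1* (0.19) and *Camkv* (0.20), and the closest to *Casp6* were *Zfp984* (0.03) and *Il4ra* (0.08). Each of these 6 genes stayed below 10 CPM, and likeness over 6 libraries out of 13112 genes is a description only.

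Other parts of the pathway were followed in 3 lists of 36 genes, of which 29 passed the filter. In edgeR's test 0 of the 29 were called in either direction, 0 had an unadjusted p under 0.05, and in 2 the groups did not overlap, against 10.2% of all genes. DESeq2 and limma-voom also called 0 of them, with 1 and 0 at an unadjusted p under 0.05, where DESeq2 had 560 and limma-voom 455 of all 13112 genes. With sample quality weights 7 of the 29 had such a p, against 29.9% of all genes, while the fit accounting for Y-linked reads had 2, against 11%. Without wild-type replicate 3, *Pidd1*, *Parp1* and *Bcap31* had an unadjusted p under 0.05, all 3 lower in Ythdf2-/-, against 16.6% of all genes, and 0 were called.

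Of the death receptors, ligands and adaptors, 11 of 14 were tested, with 8 higher and 3 lower in Ythdf2-/- and a median log2 fold change of 0.01 (0.11 without wild-type replicate 3). The ligand *Fasl* had at most 2 reads in a library and *Tnf* had 0 in all 6. *Tnfrsf21*, which encodes the death receptor DR6, had 202, 219 and 109 CPM in wild type and 293, 209 and 409 CPM in Ythdf2-/- (log2 fold change 0.78, standard error 0.347). One Ythdf2-/- library lay inside the wild-type range. *Fas* had 10.8, 9.01 and 7.60 CPM in wild type and 6.74, 7.70 and 4.59 CPM in Ythdf2-/- (log2 fold change -0.52, standard error 0.281), again with overlapping groups. *Tnfrsf1a* and *Ripk1*, with *Tnfrsf21* the most highly expressed of the list, had log2 fold changes of 0.00 and 0.01, and of -0.25 and 0.16 without wild-type replicate 3.

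Of the inhibitors of apoptosis and their antagonists, 7 of 11 were tested, 4 higher and 3 lower, with a median of 0.04 (-0.01 without wild-type replicate 3). *Xiap*, which binds and blocks caspases, ran from 127 to 148 CPM (log2 fold change -0.07, standard error 0.115, and -0.01 without wild-type replicate 3). The antagonist *Diablo* ran from 57.9 to 79.4 CPM (-0.12) and *Birc6* from 187 to 246 CPM (0.04). Without wild-type replicate 3 these values were -0.25 and 0.16. *Birc5* had a log2 fold change of 0.37 with a standard error of 1.05, and without wild-type replicate 3 the value was -0.20. *Naip2*, at 0.366 to 1.33 CPM, was higher in each Ythdf2-/- library than in each wild-type library (log2 fold change 0.92, standard error 0.408, unadjusted p = 0.0624 from edgeR).

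All 11 execution genes and caspase substrates were tested, 6 higher and 5 lower, with a median of 0.02 (-0.09 without wild-type replicate 3). *Dffb*, the nuclease that cuts DNA in apoptosis, had 8.04, 6.64 and 6.22 CPM in wild type and 8.27, 9.77 and 10.1 CPM in Ythdf2-/- (log2 fold change 0.43, standard error 0.216, unadjusted p = 0.0934 from edgeR), without overlap between the groups. The other gene among the 2 largest changes of the list was *Endog*, a mitochondrial nuclease at 0.666 to 1.77 CPM (log2 fold change 0.54, standard error 0.450). The most highly expressed substrates, *Parp1*, *Acin1* and *Lmnb1*, had values of -0.18, -0.03 and 0.12, and of -0.25, 0.12 and -0.28 without wild-type replicate 3.

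**Figure D5:**
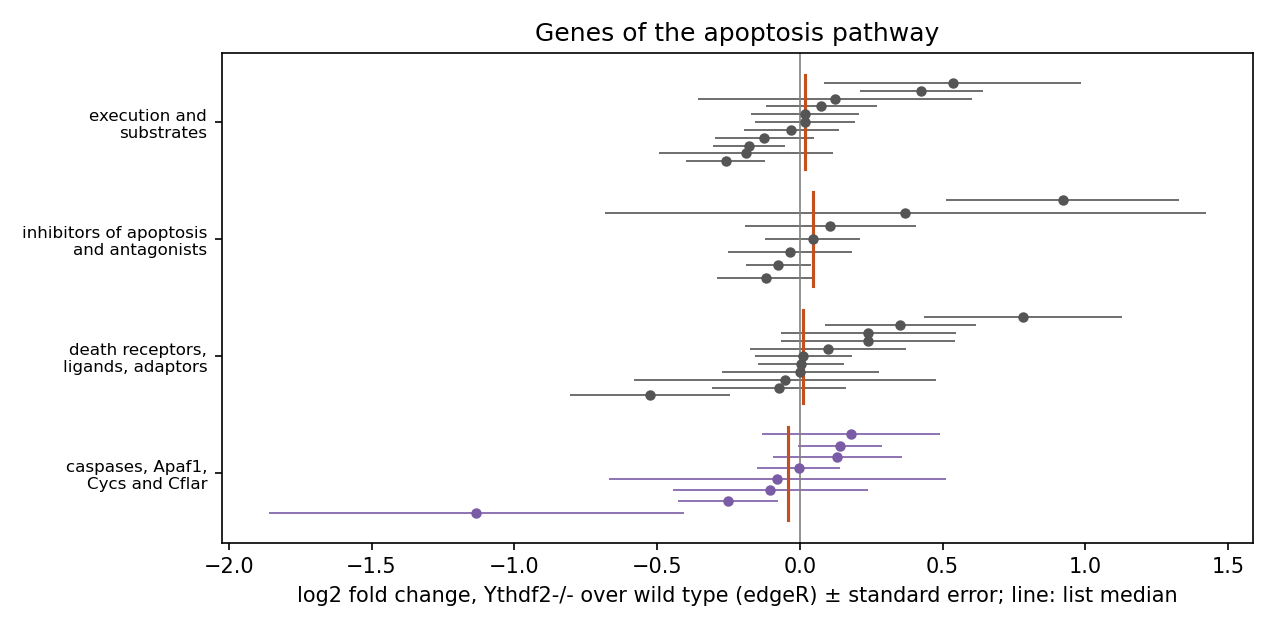
Log2 fold change of Ythdf2-/- over wild type (edgeR, points) with its standard error (lines) for the 8 genes described here (purple) and the 29 tested genes of 3 pathway lists (grey), with the median of each list in orange. The medians lie between -0.04 and 0.04, and no gene had an unadjusted p under 0.05.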

How the data were processed

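Input RNA-seq of 3 wild-type and 3 Ythdf2-/- neurosphere samples was analysed, grouped and numbered by the sample titles. The authors used a strand-specific kit and TopHat (mm10), and they deposited raw counts for each RefSeq gene, without normalization. Their processing notes also name featureCounts, Bowtie2 2.2.9 and RSEM 1.2.15. The strand setting and the treatment of multi-mapping reads are not given in the sources used here. The deposited gene tables hold expected counts and effective lengths, and expected counts were rounded for an added fit. The FPKM and TPM columns were not used.

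Counts were filtered with filterByExpr, scaled by TMM and tested with edgeR 4.0.16 (robust glmQLFit, glmQLFTest; R 4.3.3), with Benjamini-Hochberg adjustment over 13112 genes. The standard error is the log2 fold change over the root of F. CPM uses TMM library sizes. Profiles used log2 CPM with a prior count of 2. DESeq2 1.42.0, limma 3.58.1, other filters and scalings, a replicate block, a term for Y-linked reads and leaving out each library were alternatives. The fit was tested on simulated counts. The common biological coefficient of variation was 0.332. Replicate pairs differed by 4.57 to 140 times sampling noise (chi-square per degree of freedom), so each library counted once.

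The genes and lists were chosen with earlier results of these data known. The text names the 8 members, *Ythdf2*, the 3 most highly expressed and the 2 most changed genes of each pathway list, the 2 nearest profiles of members that vary over 2-fold, the 2 highest genes of marker lists and any list gene past the threshold. *Pidd1*, *Cradd*, *Bcap31*, *Gfap* and the progenitor markers beyond the 2 highest, *Fasl*, *Tnf* and the absent marker genes were named after their values were seen. A further planned list of caspases is not reported here.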

Additional observations from a re-analysis of the deposited data

How the results depend on the processing

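No alternative put a member past an adjusted p of 0.05, in 128 refits of single members, and none called a gene of the pathway lists. The count of all genes called was 0 and moved to 31 with DESeq2, to 632 with limma-voom and sample quality weights, to 13 with the term for Y-linked reads and to 1 each with DESeq2 size factors, without the filter, with at least 10 counts in every library and with the expected counts (an alternative chosen after seeing the data). Leaving out 1 library gave 0 to 2 calls. Members with an unadjusted p under 0.05 were 0, and 1 with the quality weights (*Casp8*, log2 fold change -1.55, adjusted p = 0.0663), 1 with the term for Y-linked reads (*Casp2*, -0.35, adjusted p = 0.412) and 0 to 1 without single libraries (*Casp8* without wild-type replicate 3). Members whose groups did not overlap went from 0 to 2 without wild-type replicate 3, while the share of all genes went from 10.2% to 39.0%. *Casp8* could not be tested with at least 10 counts in every library or without wild-type replicate 2. Direction turned in 21 refits, each within its standard error unless stated. For *Cycs* it did with limma-voom (0.23), the replicate block (0.14) and the term for Y-linked reads (0.70, standard error 0.455), and without single libraries the *Cycs* value ran from -0.53 (without wild-type replicate 3) to 0.26 (without wild-type replicate 1), turning also without wild-type replicate 2 (0.16) and Ythdf2-/- replicate 2 (0.12). For *Casp9* it did with limma-voom (0.00206), quality weights (0.0171), library size alone (0.0121), no filter (0.0119) and without wild-type replicate 3 (0.0745) or either of Ythdf2-/- replicates 1 (0.04) and 3 (0.03), with -0.0772 to 0.0745 over the fits that leave out 1 library. For *Apaf1* it did with quality weights (-0.11) and without wild-type replicate 3 (-0.03) or Ythdf2-/- replicate 2 (-0.0448), with -0.0448 to 0.28 over the fits that leave out 1 library. For *Casp6* it did with quality weights (-0.00754) and without Ythdf2-/- replicate 2 (-0.16), with -0.16 to 0.42 over such fits. For *Casp12* it did without wild-type replicate 2 (0.10) or Ythdf2-/- replicate 3 (0.07), with -0.33 to 0.10 over such fits, and for *Cflar* with the expected counts (-0.41, standard error 0.292). The cause was not tested. The replicate numbers share only a number: same-numbered deviations from the group means correlated at -0.248, -0.244 and -0.394, and the replicate block moved no call of a member. The depth limits *Casp8* most, at 3 to 29 reads.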
